A study of Mus musculus with 11 samples.

Results

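The genes of major histocompatibility complex (MHC) class II antigen presentation were followed in RNA-seq of sorted splenic B cells. They were chosen by name and found in the table of expression values by their Ensembl identifiers. All 10 were found among 48795 genes: Cd74, H2-Aa, H2-Ab1, H2-Eb1, H2-DMa, H2-DMb1, H2-DMb2, H2-Oa, H2-Ob and Ciita. Light zone (LZ) germinal center (GC) B cells came from 4 Myc WT and 4 Myc V394D mice, and memory B cells (MBCs) came from 3 of the same Myc WT mice. The V394D allele changes 1 amino acid of MYC at its own locus and prevents the binding of MYC to MIZ1. All mice were females of 8 to 12 weeks, kept on a C57BL/6 background and injected with sheep red blood cells into the vein 10 days earlier. LZ B cells were sorted as B220+ CD138neg IgDneg CD38neg Fas+ CD86high CXCR4low, and MBCs as B220+ CD138neg IgDneg CD38+ CD273+. The mutation is present in all cells of the mouse, so T cells and other cells around the B cells carry it too. The mouse codes in the labels have 1 stem in all Myc V394D mice and other stems in Myc WT mice, and what the codes stand for is not given, so a difference tied to the stem and one of genotype cannot be told apart.

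B cells take up antigen through their receptor, cut it in endosomes and show the peptides on MHC class II to CD4 T cells. In the LZ this display helps to decide which GC B cells receive T cell help. The class II molecules are pairs of an alpha and a beta chain, I-A (H2-Aa and H2-Ab1) and I-E (in this strain only the beta chain H2-Eb1 is made, since the alpha chain gene is a pseudogene). The invariant chain, encoded by Cd74, fills their groove until it is cut away by proteases. H2-DM (H2-DMa with H2-DMb1 or H2-DMb2) then exchanges the remaining fragment for peptide, and H2-O (H2-Oa with H2-Ob) inhibits H2-DM. CIITA, encoded by Ciita, is the coactivator that switches on these genes through the X and Y boxes of their promoters.

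Expression was given as TPM (a share of all transcripts that corrects for transcript length and scales every library to the same total). TPM hold no read depth, so the error of each value was taken from the spread between mice. Ribosomal RNA genes held 35.7% to 44.5% of the TPM in Myc WT LZ libraries, 44.1% to 61.3% in Myc V394D LZ libraries and 36.1% to 37.5% in MBC libraries, and the highest share was that of mouse 8. Mitochondrial genes held 19.7% to 26.3%, 25.4% to 37.1% and 29.3% to 33.5% in the same order, most of it mitochondrial ribosomal RNA (18.7% to 24.6%, 23.5% to 34.8% and 26.9% to 29.8%), which counts in both shares. In the same order 15460 to 19537, 13169 to 16421 and 11527 to 16040 genes had a value above 0. The MBC libraries thus lay above the Myc WT LZ libraries in their mitochondrial share, and its part in the results on MBCs was not tested. The higher share of ribosomal RNA leaves less of the fixed total for other genes in Myc V394D, where the median gene was 0.31 lower on the log2 scale than in Myc WT LZ B cells. The labels of the sort were checked with marker genes. Of 7 MBC markers 6 rose in MBCs over Myc WT LZ B cells, among them Cd38 and Pdcd1lg2 (CD273), and of 7 LZ markers 3 fell, among them Bcl6 (5 and 2 with the mouse as a replicate block). Follicular B cell markers were also higher in MBCs, with 3 of 4 past the threshold (1 of 4 with the mouse as a replicate block), and Ighd stood at 59.3 to 156 TPM in MBCs against 19.6 to 31.9 in Myc WT LZ B cells although IgD was gated out. The part of such cells in the results on MBCs was not tested.

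The invariant chain and the I-A chains were among the most abundant mRNAs of all 3 populations. Cd74 ranked 1 or 2 among protein-coding genes in every library, H2-Aa between 3 and 13 and H2-Ab1 between 9 and 22. H2-Eb1 ranked between 38 and 99, and the other 6 genes between 145 and 1928. Together the 10 genes held 1.40% to 1.94% of the TPM in Myc WT LZ B cells, 1.09% to 1.89% in Myc V394D LZ B cells and 1.96% to 2.27% in MBCs. After removal of ribosomal RNA, immunoglobulin and mitochondrial genes, the shares were 2.66% to 3.51%, 3.07% to 3.61% and 3.49% to 3.94%, and the order of the 2 LZ groups turned round. In Myc WT LZ B cells the mean levels, per length, ran from Cd74 (8199 ± 1945 TPM, SD, n = 4) through H2-Aa (4274 ± 631), H2-Ab1 (1964 ± 241) and H2-Eb1 (1289 ± 238) to H2-DMb2 (356 ± 31.2), H2-Ob (311 ± 28.7), H2-DMa (287 ± 52.3), H2-Oa (166 ± 30.2), H2-DMb1 (107 ± 23.5) and Ciita (55.8 ± 6.27). The neighbours H2-DMb2 and H2-Ob, and H2-Ob and H2-DMa, differed by less than the sum of their SDs, and the other neighbours by more. In MBCs the order of the last 6 genes was H2-Ob, H2-DMb2, H2-Oa, H2-DMa, Ciita and H2-DMb1, and in Myc V394D LZ B cells it was H2-DMb2, H2-Ob, H2-DMa, H2-Oa, H2-DMb1 and Ciita.

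**Figure D1:**
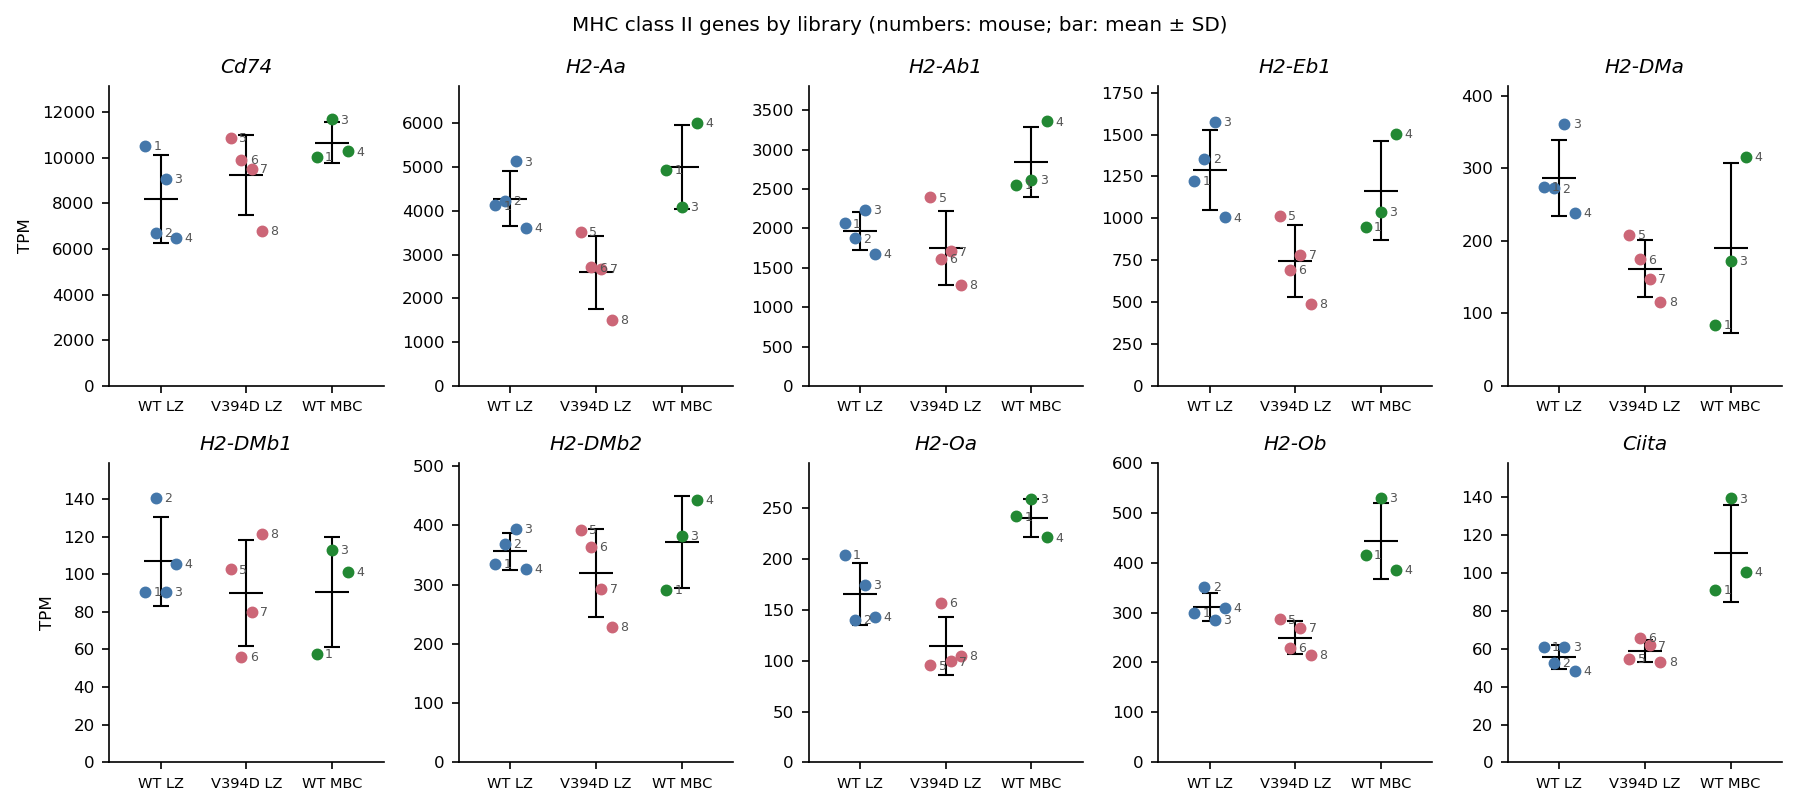
Expression of the 10 class II genes in TPM (vertical axes from 0, linear) in Myc WT LZ B cells (WT LZ, 4 libraries), Myc V394D LZ B cells (V394D LZ, 4 libraries) and Myc WT MBCs (WT MBC, 3 libraries). Each point is a library with its mouse number, and the bars are the mean ± SD. Ciita, H2-Oa, H2-Ob and H2-Ab1 lie higher in all MBC libraries than in any Myc WT LZ library, and H2-Aa and H2-DMa lie lower in all Myc V394D libraries.

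MBCs and Myc WT LZ B cells were compared first, to ask how presentation genes differ between the memory and the LZ compartment. Ciita rose in MBCs, and H2-Ab1, H2-Oa and H2-Ob were higher in every MBC library than in every Myc WT LZ library but did not pass the adjusted threshold. In limma with Benjamini-Hochberg adjustment over 13245 genes, 1 of the 10 genes was called higher and 0 lower, beside 4.17% of all genes called higher and 5.04% lower. With the mouse as a replicate block 0 of 10 were called, and the calls over all genes went from 552 higher and 667 lower to 130 and 118. Before adjustment 4 of 10 had p under 0.05 and a higher mean, and 0 a lower mean, beside 11.3% and 15.8% of all genes. In 4 of 10 the MBC libraries lay wholly above the Myc WT LZ libraries, against 11.8% of all genes tested. The median difference of the 10 genes was 0.31 on the log2(TPM + 1) scale, and that of all genes was -0.14. In bulk RNA, more cells that express a gene and more RNA per cell cannot be told apart.

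Ciita stood at 61.0, 52.7, 61.0 and 48.4 TPM in the LZ B cells of Myc WT mice 1 to 4, and at 91.2, 139 and 100 TPM in the MBCs of mice 1, 3 and 4. The groups did not overlap, and the lowest MBC library was well above the highest LZ library. The difference was 0.95 ± 0.25 (log2, SE; 95% CI 0.38 to 1.53), or 1.94-fold, with an adjusted p of 0.0499 in limma and p = 0.0286 by two-sided exact permutation, the smallest that 3 against 4 libraries allow. The permutation takes the libraries as unpaired. MBCs were higher in all 3 mice that gave both libraries, by 0.57, 1.18 and 1.04. The call is at the edge of the threshold: with the mouse as a replicate block the difference was 0.93 with an adjusted p of 0.272. The size stayed between 0.73 and 1.08 over 18 alternatives, while the adjusted p ran from 0.0244 to 0.272 and 6 of the 18 kept the call. It was lost when any 1 of the 4 LZ libraries (adjusted p of 0.107 to 0.156, limma) or the MBC library of mouse 3 (0.0597) was left out.

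H2-Oa, the alpha chain of the H2-DM inhibitor, stood at 204, 140, 175 and 143 TPM in the LZ, while MBCs reached 242, 259 and 221 TPM. Its partner H2-Ob stood at 299, 351, 285 and 309 TPM in the LZ, with 415, 530 and 386 TPM in MBCs. Both chains were thus higher in each MBC library, without overlap. The differences were 0.55 ± 0.21 for H2-Oa (adjusted p = 0.139, limma) and 0.50 ± 0.19 for H2-Ob (adjusted p = 0.133, limma), with MBCs above the LZ B cells of the same mouse in 3 of 3 mice for each gene.

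The genes of H2-DM overlapped between the groups. H2-DMa stood at 275, 272, 361 and 239 TPM in LZ B cells, against 83.5, 172 and 316 TPM in MBCs, the widest spread of any class II gene within a group (coefficient of variation 61.5%). The MBC library of mouse 4 lay among the LZ libraries, and those of mice 1 and 3 lay below all of them. Over all 3 MBC libraries the difference was -0.77 ± 0.40 (adjusted p = 0.256, limma). Without the MBC library of mouse 4 it was -1.23 with an adjusted p of 0.0405, so that this library decides the call, and without that of mouse 1 it was -0.28 (adjusted p = 0.552, limma). H2-DMb1 (91 to 141 TPM in LZ B cells, 57.7 to 113 in MBCs) and H2-DMb2 (325.9 to 393.6 and 290.5 to 444) overlapped between the groups, with differences of -0.27 ± 0.30 and 0.05 ± 0.20. The longest transcripts of H2-DMb1 and H2-DMb2 are identical at 94.1% of 1219 aligned bases, and 27.2% of the 50-base words of H2-DMb1 also occur in H2-DMb2, so reads may have been divided between them with error. Summed, the pair differed by -0.02 (adjusted p = 0.959, limma).

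Among the chains that bind peptide, H2-Ab1 stood at 2064, 1873, 2238 and 1680 TPM in LZ B cells, against 2552, 2620 and 3358 TPM in MBCs. The MBC libraries lay above all LZ libraries, with a difference of 0.53 ± 0.17 (adjusted p = 0.0894, limma; 3 of 3 mice). Over 18 alternatives the difference of H2-Ab1 ran from 0.25 to 0.60, and 1 of them called it. H2-Aa, its alpha partner, differed by 0.22 ± 0.19 and H2-Eb1 by -0.16 ± 0.22. For both of these genes the MBC library of mouse 4 was the highest of the 3, and the groups overlapped. Cd74 stood at 10531, 6706, 9069 and 6488 TPM in LZ B cells, against 10026, 11682 and 10282 TPM in MBCs. The LZ library of mouse 1 reached into the MBC range, and the difference was 0.41 ± 0.20 (adjusted p = 0.228, limma). The sign of the Cd74 difference turned to -0.51 under quantile normalization. That method sets each value by its rank in the library, so for a gene near the top it follows rank more than level.

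Myc V394D and Myc WT LZ B cells were compared next, to ask what the loss of MYC and MIZ1 binding does to the same genes. No class II gene passed the adjusted threshold (limma, 0 of 10, beside 0.0466% of 12869 genes in either direction). At an unadjusted p under 0.05, 4 of 10 were lower (H2-DMa, H2-Eb1, H2-Aa and H2-Oa) and 0 higher, beside 15.7% and 1.24% of all genes. In 2 of 10 every Myc V394D library lay below every Myc WT library, beside 9.16% of all genes. The median difference of the 10 genes was -0.30, close to the -0.31 of all genes. The 5 plasma cell markers summed to 134 to 221 TPM in Myc V394D and 229 to 381 TPM in Myc WT. Their median difference, over the 4 tested, was -0.36 and thus near the -0.31 of all genes. Of the 4 tested 0 passed and 1 had an unadjusted p under 0.05, Jchain, at 67.1 to 144 against 152 to 280 TPM (-1.09 ± 0.28, adjusted p = 0.122, limma). The part of such cells in the results on Myc V394D was not tested.

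H2-Aa stood at 4126, 4229, 5129 and 3611 TPM in Myc WT and at 3523, 2708, 2666 and 1501 TPM in Myc V394D mice 5 to 8. The groups came close between mice 4 and 5 but did not overlap. The difference was -0.77 ± 0.26 (95% CI -1.34 to -0.20; adjusted p = 0.186, limma; p = 0.0286 by two-sided exact permutation, the smallest that 4 against 4 allow). H2-DMa lay outside the Myc WT range as well, with 208, 174, 147 and 116 TPM in Myc V394D, all below the 239 to 361 TPM of Myc WT. Its difference was -0.84 ± 0.22 (adjusted p = 0.128, limma). H2-Eb1 stood at 1013, 692, 783 and 491 TPM in Myc V394D and at 1224, 1353, 1573 and 1005 TPM in Myc WT, and of these only mouse 5 was above the lowest Myc WT library. The difference was -0.82 ± 0.24 (adjusted p = 0.148, limma). H2-Oa was at 95.4, 157, 99.4 and 105 TPM in Myc V394D, with mouse 6 inside the Myc WT range, and differed by -0.55 ± 0.22 (adjusted p = 0.247, limma).

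The remaining genes overlapped between the genotypes. Cd74 stood at 10862, 9910, 9496 and 6781 TPM in Myc V394D, 3 of which are above 3 of the Myc WT libraries, with a difference of 0.18 ± 0.25. Ciita differed by 0.08 ± 0.20 and stood at 53.1 to 65.9 TPM in Myc V394D against 48.4 to 61.0 TPM in Myc WT, in an interval of -0.35 to 0.51. H2-Ab1 differed by -0.20 ± 0.22, H2-DMb1 by -0.28 ± 0.26, H2-DMb2 by -0.18 ± 0.21 and H2-Ob by -0.32 ± 0.18. The sign of these 4 depended on the scaling, and all 4 were above 0 after median ratio scaling and after removal of ribosomal RNA, immunoglobulin and mitochondrial genes. H2-Aa, H2-Eb1, H2-DMa and H2-Oa stayed below Myc WT in every alternative, with ranges of -0.94 to -0.42, -0.98 to -0.45, -0.97 to -0.49 and -0.71 to -0.20. Mouse 8, with the highest share of ribosomal RNA, was the lowest Myc V394D library for 8 of the 10 genes.

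MBCs against Myc V394D LZ B cells differ in both cell type and genotype and were compared to place the 3 groups in order. In 5 of 10 genes (H2-Aa, H2-Ab1, H2-Oa, H2-Ob and Ciita) the MBC libraries lay wholly above the Myc V394D libraries, beside 12.5% of all genes. In limma 0 of 10 passed the adjusted threshold, beside 2.52% of 13131 genes called higher, and 6 of 10 were higher at an unadjusted p under 0.05, beside 12.3%. Over all genes 331 were higher and 178 lower, and after median ratio scaling 224 and 298. With all 3 groups in 1 fit, which shares the estimate of the spread, H2-Aa, H2-Ab1, H2-Oa, H2-Ob and Ciita (5 of 10) passed as higher, beside 7.73% of 13241 genes. The widest differences were 1.10 ± 0.29 for H2-Oa (adjusted p = 0.0591, limma) and 0.99 ± 0.28 for H2-Aa (adjusted p = 0.0808, limma). H2-Oa thus ran from 114 ± 28.6 TPM in Myc V394D LZ B cells through 166 ± 30.2 in Myc WT LZ B cells to 241 ± 18.8 in MBCs (SD, n = 4, 4 and 3). Ciita stood at 58.9 ± 6.03, 55.8 ± 6.27 and 110.4 ± 25.6 TPM in the same order, and its LZ groups did not differ beyond their spread. Over 16 alternatives the difference between MBCs and Myc V394D ran from 0.60 to 1.26 for H2-Oa and 0.54 to 1.16 for H2-Aa. For H2-Ab1 it ran from 0.08 to 0.89. Cd74, H2-DMa, H2-DMb1 and H2-DMb2 turned lower in MBCs under median ratio scaling, quantile normalization and removal of ribosomal RNA, immunoglobulin and mitochondrial genes.

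**Figure D2:**
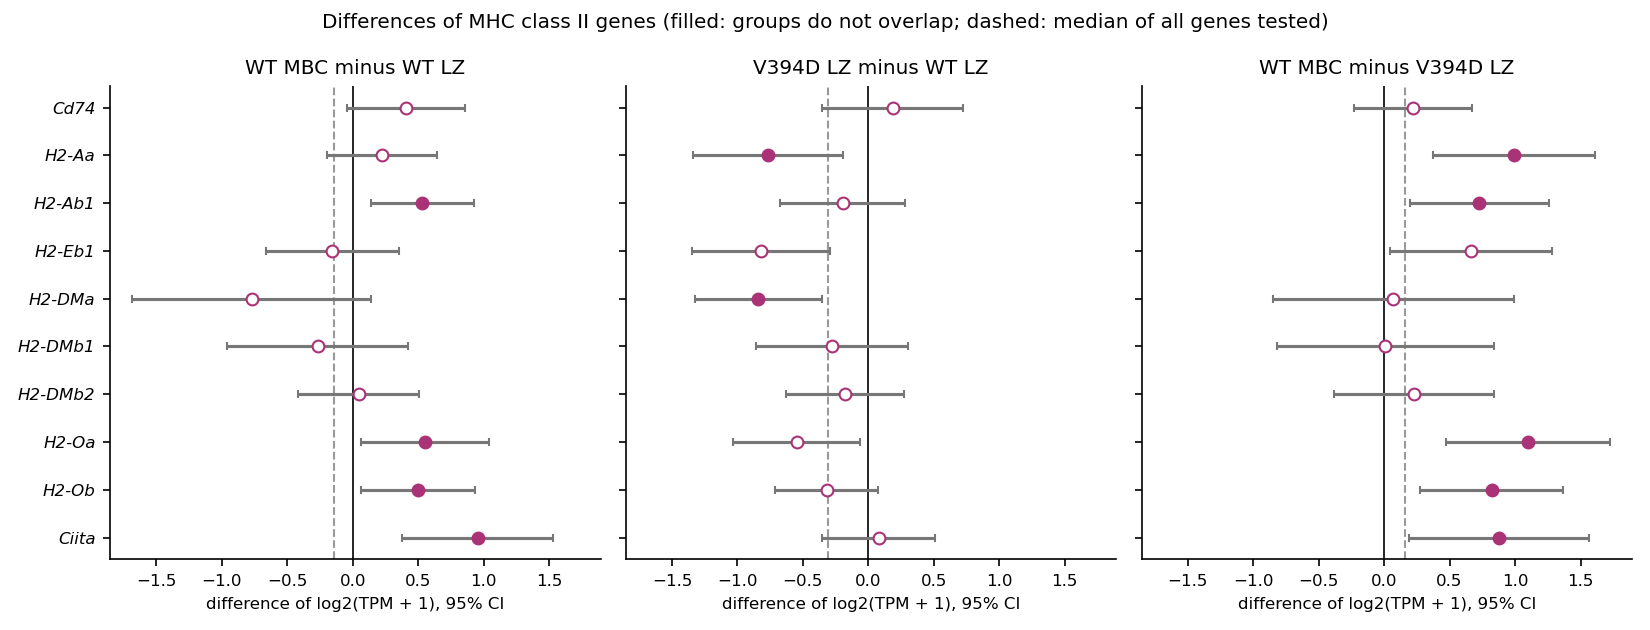
Differences of log2(TPM + 1) with 95% confidence intervals for the 10 class II genes, in MBCs against Myc WT LZ B cells (left), Myc V394D against Myc WT LZ B cells (middle) and MBCs against Myc V394D LZ B cells (right). Filled points mark genes whose libraries do not overlap between the groups, and the dashed line is the median of all genes tested, -0.14, -0.31 and 0.16 from left to right. The comparisons share their libraries in pairs, and Ciita is 0.95 higher in MBCs than in Myc WT LZ B cells.

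The balance between class II genes was then followed as ratios of TPM within a library, which do not depend on how a library was scaled. There were 5 ratios in 3 comparisons, each tested by two-sided exact permutation of the mean log2 ratio and adjusted over the 15 tests. The permutation takes the libraries as unpaired, although MBCs and Myc WT LZ B cells came in part from the same mice. In 8 tests the groups did not overlap and p was 0.0286, the smallest the design allows, which gives an adjusted p of 0.0536. No ratio could pass 0.05 at these numbers with 8 such tests, and 0 of 15 did. Several ratios hold H2-Ab1, and the comparisons share libraries, so the tests depend on each other. Ratios of other genes were not tested, so no share over all genes stands beside the 8.

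H2-Aa over H2-Ab1, the alpha chain relative to its beta partner in I-A, was 2.00, 2.26, 2.29 and 2.15 in Myc WT LZ B cells and 1.47, 1.68, 1.56 and 1.17 in Myc V394D LZ B cells. Every Myc V394D library was thus below every Myc WT library, with mean values of 1.47 ± 0.22 and 2.17 ± 0.13 (SD, n = 4) and a log2 difference of -0.57 ± 0.12 (SE). The groups also stood apart in all 8 fits that leave out 1 library, with differences of -0.64 to -0.47. In MBCs the ratio was 1.93, 1.56 and 1.79, below all Myc WT LZ libraries, with a log2 difference of -0.31 ± 0.10. Within a mouse the MBC ratio differed by -0.05, -0.55 and -0.27 in mice 1, 3 and 4, so that mouse 1 hardly differed.

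H2-Eb1 over H2-Ab1, the beta chain of I-E relative to that of I-A, was 0.593, 0.723, 0.703 and 0.598 in Myc WT LZ B cells. It was 0.423, 0.430, 0.459 and 0.383 in Myc V394D LZ B cells, and 0.372, 0.397 and 0.448 in MBCs. Both groups lay below all Myc WT LZ libraries, with log2 differences of -0.62 ± 0.09 and -0.69 ± 0.11, and within the mice the MBC ratio was lower in 3 of 3 (-0.67, -0.82 and -0.42). The 2 comparisons share the Myc WT LZ libraries. Between MBCs and Myc V394D LZ B cells the ratio differed by -0.06 ± 0.09 (exact p = 0.514).

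Cd74 over the sum of H2-Aa and H2-Ab1, the invariant chain relative to I-A, was 1.70, 1.10, 1.23 and 1.23 in Myc WT LZ B cells and 1.84, 2.29, 2.17 and 2.44 in Myc V394D LZ B cells. All Myc V394D libraries were above all Myc WT libraries, with a log2 difference of 0.75 ± 0.16. In MBCs the ratio was 1.34, 1.74 and 1.10, close to the range of Myc WT LZ B cells (0.08 ± 0.24, exact p = 0.714), and below that of Myc V394D by -0.67 ± 0.21. H2-DM over the I-A chains was 0.113 to 0.128 in Myc WT LZ B cells, 0.119 to 0.168 in Myc V394D and 0.0577 to 0.0995 in MBCs. The MBC libraries were below all LZ libraries of both genotypes (log2 differences of -0.58 ± 0.25 against Myc WT and -0.73 ± 0.27 against Myc V394D). Without the MBC library of mouse 1, the lowest at 0.0577, these were -0.33 and -0.49.

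H2-O over H2-DM, the inhibitor relative to its target, was 0.718, 0.629, 0.544 and 0.675 in Myc WT LZ B cells and 0.543, 0.649, 0.710 and 0.685 in Myc V394D LZ B cells. The genotypes overlapped, with a log2 difference of 0.01 ± 0.12. In MBCs it was 1.52, 1.18 and 0.706, where mice 1 and 3 were above all LZ libraries and mouse 4 was among them. The difference to Myc WT LZ B cells was 0.76 ± 0.34 (exact p = 0.0571, adjusted p = 0.0857), and it ran from 0.52 to 1.07 when 1 library was left out.

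**Figure D3:**
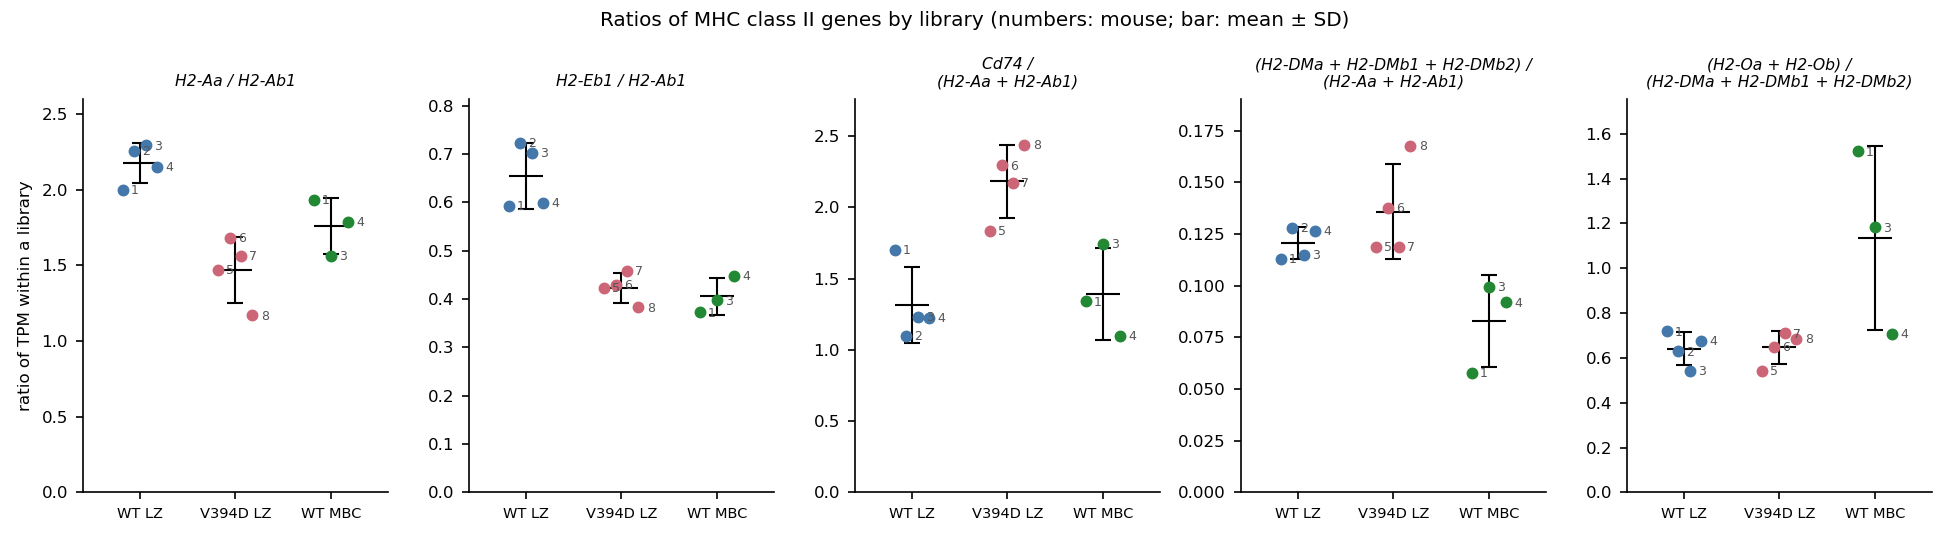
Ratios of TPM between class II genes within each library (vertical axes from 0, linear) in Myc WT LZ, Myc V394D LZ and Myc WT MBC libraries, with mouse numbers, mean and SD. H2-Aa over H2-Ab1 and H2-Eb1 over H2-Ab1 are lower in all Myc V394D and MBC libraries than in any Myc WT LZ library. Cd74 over the I-A chains is higher in all Myc V394D libraries, and H2-O over H2-DM is above the LZ libraries in 2 of 3 MBC libraries.

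The class II genes other than Cd74 and Ciita lie together on chromosome 17 (GRCm38), on 34092340 to 34316674 from H2-Oa to H2-Eb1, and Ciita lies on chromosome 16 (10480059 to 10528418). RefSeq promoter windows (GRCm38.p6, 250 bases before to 50 after the start) were held for 7 of the 10 genes in 8 windows, with 2 starts for H2-DMa, and not for Cd74, H2-Ab1 or Ciita. The sequences below are shown because CIITA acts through X and Y boxes, and they are stretches of 90 bases that end 19 to 66 bases before the RefSeq start of each window. RefSeq and GENCODE starts differ, so the stretches of H2-Oa and H2-DMb1 run past the start of the GENCODE gene, and that of H2-DMb2 lies inside the GENCODE gene. Capitals mark TGATTGG, a form of the Y box, and CCTNGNNAC or AACNNATG, letters of the X box.
H2-Oa (chr17:34092271-34092360, plus strand): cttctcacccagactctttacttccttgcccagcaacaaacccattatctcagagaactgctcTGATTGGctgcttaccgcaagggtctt
H2-DMb2 (chr17:34145094-34145183, plus strand): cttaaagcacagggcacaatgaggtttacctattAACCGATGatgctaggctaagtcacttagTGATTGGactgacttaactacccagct
H2-DMb1 (chr17:34153065-34153154, plus strand): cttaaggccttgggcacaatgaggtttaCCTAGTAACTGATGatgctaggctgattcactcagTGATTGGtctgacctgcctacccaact
H2-Ob (chr17:34238783-34238872, plus strand): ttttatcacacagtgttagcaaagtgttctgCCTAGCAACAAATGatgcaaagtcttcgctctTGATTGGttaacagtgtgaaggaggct
H2-Aa (chr17:34287847-34287936, minus strand): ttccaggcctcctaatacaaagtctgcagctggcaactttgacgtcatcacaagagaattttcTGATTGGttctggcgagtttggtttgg
H2-Eb1 (chr17:34305743-34305832, plus strand): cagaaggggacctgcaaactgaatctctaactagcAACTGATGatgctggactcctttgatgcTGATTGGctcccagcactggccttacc

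The Y box core ATTGG was held, on either strand, by 7 of the 8 windows, against 37.4% of 32851 promoter windows of the same length. TGATTGG, which holds that core, was found in 6 of 8 against 7.82%, CCTNGNNAC in 2 of 8 against 15.8%, and AACNNATG, which can overlap the end of CCTNGNNAC by 3 letters, in 4 of 8 against 8.86%. AACNNATG followed by TGATTGG on the same strand with 10 to 40 bases between them occurred in 4 of 8 (H2-DMb2, H2-DMb1, H2-Ob and H2-Eb1) against 0.0548% of all windows, and CCTNGNNAC followed by ATTGG in 2 of 8 against 0.517%. The E box CACGTG, a site bound by MYC with MAX, was found in 0 of 8 windows against 7.15%. At such a share 0 of 8 is a common outcome by chance, so the count does not set these promoters apart. TGATTGG and AACNNATG were chosen after the sequences were read.

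Of 7 regulators of Ciita, 0 rose and 1 fell in MBCs against Myc WT LZ B cells (limma; 3 had an unadjusted p under 0.05), with a median difference of 0.75 beside -0.14 for all genes. Bcl6, the repressor that maintains the GC state, fell from 156 to 215 TPM in LZ B cells to 23.2 to 53.4 TPM in MBCs (-2.20 ± 0.32, adjusted p = 0.00594, limma). Irf8 and Pax5, activators in B cells, did not pass (0.76 ± 0.24, adjusted p = 0.0795, and 1.32 ± 0.40, adjusted p = 0.0703, limma). Pax5 stood at 408, 1171 and 380 TPM in the MBCs of mice 1, 3 and 4, and without mouse 3 its difference was 0.80. In Myc V394D against Myc WT 0 of the 7 passed, and 0 had an unadjusted p under 0.05.

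Of 7 subunits of the complexes that bind the X and Y boxes, 0 passed in MBCs and 0 in Myc V394D. Nfya, a Y box subunit, was higher in every MBC library (50.1 to 80.0 TPM) than in every Myc WT LZ library (35.5 to 39.8 TPM), with a difference of 0.79 ± 0.27 (adjusted p = 0.101, limma). Rfxap, a subunit of the X box complex RFX, was lower in every MBC library (0 to 3.32 TPM) than in every Myc WT LZ library (5.88 to 17.5 TPM), with a difference of -2.18 ± 0.65 (adjusted p = 0.0704, limma). Nfyb, another Y box subunit, was lower in every Myc V394D library (11.2 to 20.6 TPM) than in every Myc WT library (23.8 to 36.95 TPM), with a difference of -0.78 ± 0.27 (adjusted p = 0.191, limma). Rfx5, the X box subunit that meets CIITA, differed by -0.30 ± 0.31 in MBCs.

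Of 10 genes of antigen processing and invariant chain cleavage, 1 rose and 0 fell in MBCs. The mean was higher than in Myc WT LZ B cells in 9 of 10 (median difference 0.63 beside -0.14 for all genes). Ctss, the cathepsin that removes the invariant chain in B cells, stood at 150, 172, 203 and 133 TPM in Myc WT LZ B cells, at 111, 76.9, 83.0 and 53.2 TPM in Myc V394D and at 474, 426 and 436 TPM in MBCs. The 3 groups did not overlap. Ctss rose by 1.45 ± 0.21 in MBCs (adjusted p = 0.00562, limma), and it was called in all 18 alternatives. In Myc V394D it differed by -1.04 ± 0.25 (adjusted p = 0.111, limma; called in 1 of 17 alternatives), and all 9 tested genes of the list had lower means there (median -0.64 beside -0.31 for all genes). Of 3 genes of class II turnover, March1, the ligase that directs class II to degradation, was higher in every MBC library (87.7 to 108 TPM against 51.2 to 71.1; adjusted p = 0.130, limma), and 0 of 3 passed in MBCs. In Myc V394D 0 of these 3 genes passed, and 2 had an unadjusted p under 0.05 (limma). All 3 had lower means there, with a median of -0.48 beside -0.31 for all genes. Of 6 genes that lie among the class II genes, 0 passed in either comparison. Their median difference was -0.11 in MBCs, beside -0.14 for all genes. In Myc V394D it was -0.42 beside -0.31 for all genes, and 5 of 6 had lower means. Psmb9 and Psmb8, subunits of the immunoproteasome, differed there by -0.88 ± 0.30 (adjusted p = 0.191, limma) and -0.67 ± 0.24 (adjusted p = 0.204, limma).

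**Figure D4:**
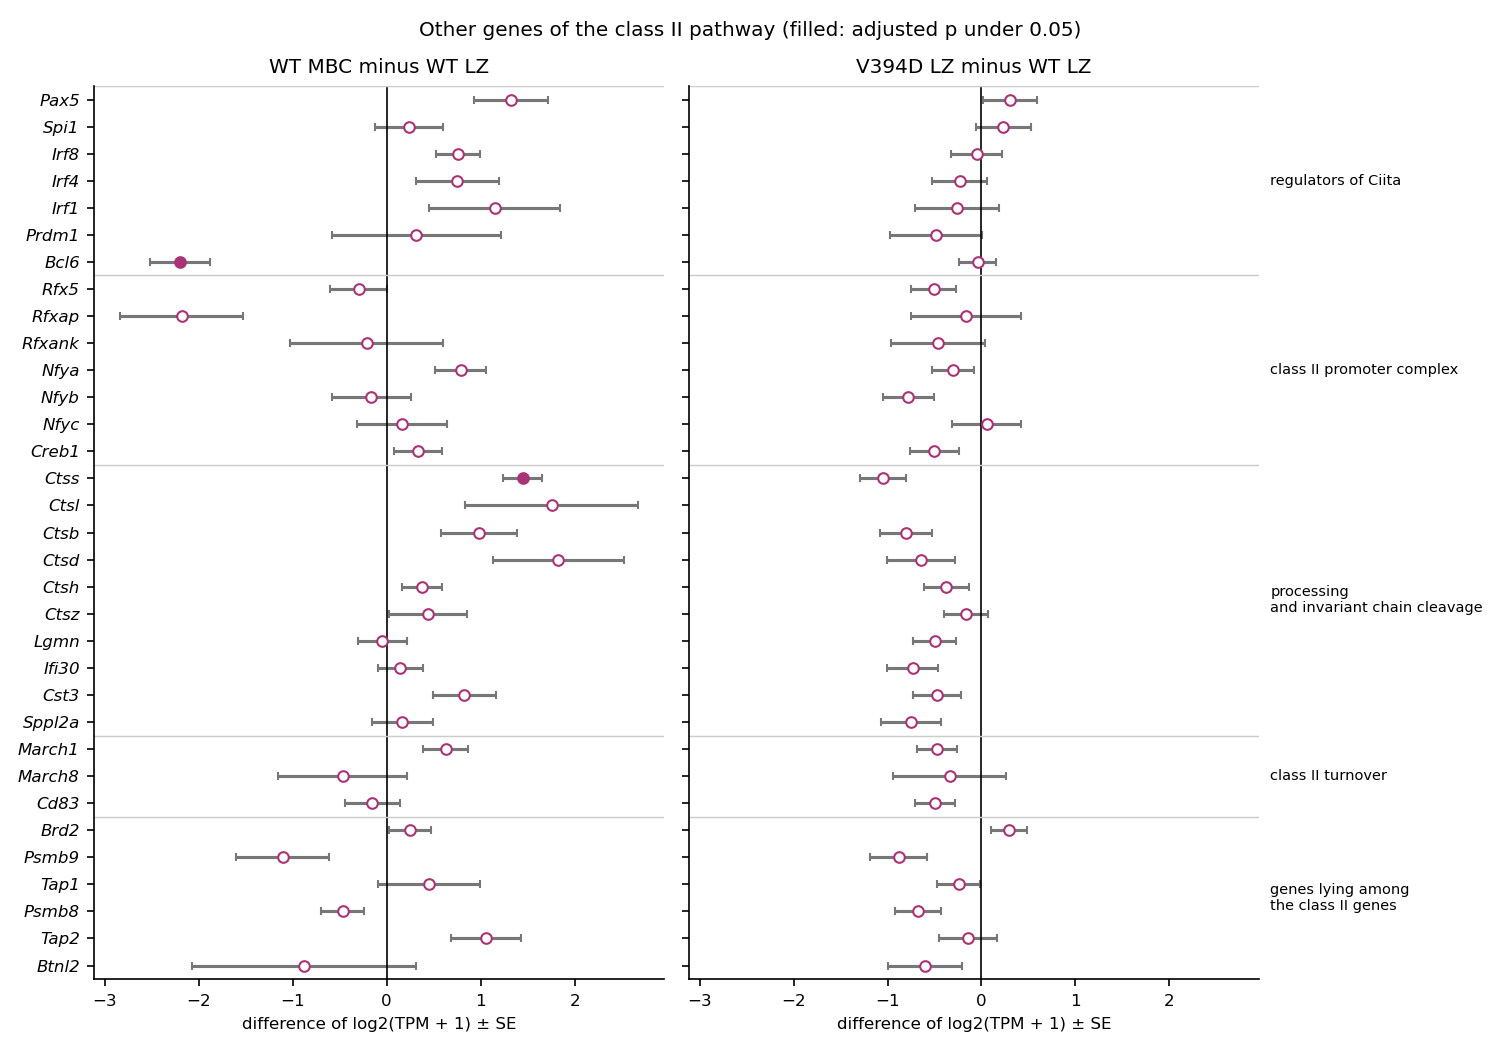
Differences of log2(TPM + 1) ± SE for other genes of the class II pathway, in MBCs against Myc WT LZ B cells (left) and in Myc V394D against Myc WT LZ B cells (right), grouped by role. Filled points passed the adjusted threshold in limma. In MBCs these are Bcl6 and Ctss, and in Myc V394D there are none.

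Macrophages and dendritic cells also make class II and Ctss, and their markers moved with the MBC group. The 10 markers summed to 21.03 to 25.63 TPM in Myc WT LZ B cells, 23.9 to 37.2 in Myc V394D and 41.3, 76.6 and 208 TPM in the MBCs of mice 1, 3 and 4. In MBCs 2 of the 7 tested rose, Csf1r (0 to 0.08 TPM in Myc WT LZ B cells, 5.89 to 16.4 in MBCs) and Itgam, neither of them with the mouse as a replicate block (adjusted p = 0.0808 and 0.150, limma). Lyz2 was at 136 TPM in the MBC library of mouse 4, at 31.2 in mouse 3 and at 0.15 in mouse 1. Defining dendritic cell markers were low, with Xcr1 at 0 to 0.07 TPM and Batf3 at 0 to 0.49 TPM in MBCs, and Zbtb46 reached 6.57 TPM in mouse 4. In mouse 1 Csf1r was at 9.99, Cd68 at 22.5 and Itgam at 3.84 TPM, each above every LZ library. Among the MBC libraries H2-Aa, H2-Ab1, H2-Eb1, H2-DMa and H2-DMb2 were highest in mouse 4, and Cd74, H2-DMb1, H2-Oa, H2-Ob and Ciita in mouse 3. H2-Oa and H2-Ob were lowest in mouse 4. The part of macrophages and dendritic cells in the results on MBCs was not tested. The 7 T cell markers summed to 33.1 to 68.5 TPM in Myc WT LZ B cells, 27.4 to 44.95 in Myc V394D and 26.1, 0 and 48.9 TPM in the MBCs of mice 1, 3 and 4. Lck, a kinase of T cell receptor signalling, held most of this in the LZ libraries (24.1 to 66.5 TPM). Trac was at 0 to 0.48 TPM in Myc WT LZ B cells and 0 to 2.82 in Myc V394D. Cd3e was at 0 to 1.99 and 0 to 6.48 TPM in the same order. In the Myc V394D library of mouse 6, 6 of the 7 markers were at 0. In the MBC library of mouse 4 none of the 7 was at 0, with Trac at 17.65 and Cd3e at 5.37 TPM, and their part in the results was not tested.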

How the data were processed

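RNA of 11 libraries was analysed from 1 table. Per the labels and methods, the authors aligned reads with STAR 2.5.2a, quantified Ensembl genes (GRCm38) with RSEM 1.3.0 and a strand-specific setting, and deposited TPM (DESeq2 1.18.1 is named in their processing notes). Symbols came from GENCODE M21. Groups were compared with limma 3.58.1 (lmFit, eBayes with trend; R 4.3.3) on log2(TPM + 1), which makes differences of low genes smaller. Genes had to average 1 TPM or more in the 2 groups compared. Two-sided p-values were adjusted by Benjamini-Hochberg over all genes (threshold 0.05), and the fit was tested on simulated data. Ratios and single genes were tested by exact permutation, which takes the libraries as unpaired (numpy 2.4.6, pandas 2.3.3). Each library is 1 mouse. MBC and LZ libraries of the same mouse, by the labels, pair, yet their deviations from the group means correlated at 0.01, 0.01 and -0.05 across genes. Alternatives changed the pseudocount, filter, scaling, trend or samples of the fit, or left out 1 library. A few genes of the lists are not reported here, and list counts leave them out. The genes and lists were chosen with earlier results of these data known. Named were the 10 genes, list genes past the threshold or singled out by role, and the 5 genes most alike in pattern.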

Additional observations from a re-analysis of the deposited data

Results flagged for a closer look

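Among 30 sets of 4 values (10 genes and 5 ratios in each LZ group), 1 had a library far from the others. H2-Oa in the Myc V394D LZ library of mouse 6 was at 157 TPM, and its gap to the next library was 0.842 of the whole range, above the critical value of Dixon's test. Chance alone gives such a gap in about 1 of 20 sets.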

How the results depend on the processing

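The number of reads is unknown, and groups of 3 or 4 libraries limit what the tests can call. Of 10 class II genes, 1 (Ciita) was called in MBCs against Myc WT LZ B cells. This count was 0 with a pseudocount of 0.1 TPM, with no filter on low values, under quantile normalization, without the trend of eBayes and with the mouse as a replicate block, and also within mice 1 to 3, whose codes have 1 stem (chosen after seeing the data). It ran from 0 to 2 when 1 library was left out, with H2-DMa as the second gene without the MBC library of mouse 4 (-1.23, adjusted p = 0.0405, limma). Under median ratio scaling H2-Ab1 was called in place of Ciita (0.56, adjusted p = 0.0445, limma). For MBCs against Myc V394D LZ B cells the count was 0, but 1 with a mean of 5 TPM required (beside 362 of 9228 genes higher) and 5 with all 3 groups in 1 fit (beside 1023 of 13241), against 331 of 13131. For Myc V394D against Myc WT it was 0 under all alternatives.

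The median difference of the 10 genes in Myc V394D against Myc WT turned from -0.30 to 0.0354 under median ratio scaling and to 0.0480 without ribosomal RNA, immunoglobulin and mitochondrial genes, and was -0.0022 under quantile normalization. All genes moved in the same way, from a median of -0.31 to one of -0.01 to -0.02, so the median of the 10 genes stayed close to that of all genes, while single genes lay, without rescaling, from 0.53 below it (H2-DMa) to 0.49 above it (Cd74). In MBCs against Myc WT LZ B cells the median was 0.0531 under quantile normalization, against 0.31. In MBCs against Myc V394D it was 0.69, with 0.39 under median ratio scaling, 0.23 under quantile normalization and 0.34 without those genes. Over all genes, the mouse as a replicate block changed the calls in MBCs against Myc WT LZ B cells from 552 higher and 667 lower to 130 and 118. Without mouse 5 the calls in Myc V394D went from 1 and 5 to 12 and 242. The ratios within a library kept their direction in all 8 comparisons with groups apart when any 1 library was left out, and those between MBCs and Myc WT LZ B cells also had 1 direction in mice 1, 3 and 4.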

Other observations

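The genes whose level followed the mean of the 10 class II genes most closely over the 11 libraries, among 9212 genes that averaged 5 TPM or more, were Ppp2r5c (Pearson r = 0.964), Tmod3 (0.961), Fam102a (0.960), Hvcn1 (0.960) and Rpl4 (0.945). The libraries share their scale, and no test was made. Hvcn1, a proton channel of B cells, had means of 251 TPM in Myc WT LZ B cells, 180.4 in Myc V394D LZ B cells and 342 in MBCs. Rpl4, a ribosomal protein, had means of 1655, 1212 and 1770 TPM. Over the same 11 libraries H2-Aa followed the mean of the other 9 class II genes with r = 0.871 and H2-Ab1 with r = 0.861, while Cd74 (0.401), H2-DMa (0.397) and H2-DMb1 (0.0169) followed it less closely.

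H2-Eb2, another class II beta chain gene, stood at 17.7 to 24.3 TPM in Myc WT LZ B cells, 8.23 to 20.4 in Myc V394D and 20.6 to 46.4 in MBCs. All MBC libraries were above all Myc V394D libraries (adjusted p = 0.235, limma), and Myc WT LZ libraries overlapped with both. The pseudogene H2-Ea-ps was at 0 to 1.43 TPM in all libraries.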
